A study of Arabidopsis thaliana with 4 samples.

Results

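The transcripts described here come from 10 *Arabidopsis thaliana* genes that make salicylic acid, control its synthesis or read it, chosen by locus number from 33664 features. They are the synthesis genes *ICS1*, *EDS5* and *PBS3*, the regulators *CBP60G* and *SARD1*, the immune node genes *EDS1* and *PAD4*, the receptor genes *NPR1* and *NPR3*, and the target gene *PR1*. Levels came from poly(A) RNA sequencing of whole Col-0 seedlings at 9 days, grown at 23 °C on MS medium in a cycle of 16 h light and 8 h dark. The groups were 2 libraries of the wild type and 2 of the mutant trm4b-4, whose genotype field spells the allele tm4b-4. No pathogen, hormone or other treatment is named for either genotype. The libraries held 21931590 to 26390263 fragments each.

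Salicylic acid is a defence hormone whose synthesis starts in the plastid, where isochorismate synthase turns chorismate into isochorismate. EDS5 carries isochorismate out of the plastid, and PBS3 joins it to glutamate to give a compound that breaks down into salicylic acid. The transcription factors CBP60g and SARD1 bind and activate *ICS1*, and the lipase-like partners EDS1 and PAD4 act upstream, in immune receptor signalling. NPR1 activates target genes such as *PR1*, while NPR3 and NPR4 repress them until the hormone binds.

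The transcript of the mutated gene was not lower in the mutant. *TRM4B* (AT2G22400), encoding an RNA methyltransferase, was at 29.7 and 28.9 in wild type and at 86.3 and 87.1 in the mutant, in FPKM, which are fragments scaled to gene length and library size. Every direction below therefore refers to the libraries labelled trm4b-4, and trm4b-4 stands for that label. The 5 markers of green tissue (each at 80.7 FPKM or more) and the 6 of root (each at 1.34 FPKM or more) were detected in every library. Of the green ones 3 were higher and 2 lower in trm4b-4, where 19.2% of all tested genes were higher and 15.1% lower. The green markers ran from *LHCB2.1*, a light-harvesting protein gene (log2 change 0.63, limma adjusted p = 2.27e-07), to *RCA*, the Rubisco activase gene (log2 change -0.21, limma adjusted p = 1.52e-05). Their sum, set mostly by the most abundant of them, was 13709 and 13808 FPKM in wild type and 13710 and 13805 FPKM in trm4b-4. Of the root ones 1 was lower and 0 higher, and their sum was 53.8 and 54.2 FPKM in wild type and 47.6 and 51.1 FPKM in trm4b-4. The part of tissue makeup in the differences below was not tested. The mean chi-square per gene was 1.74 and 1.58 between libraries of a genotype and 28.6 to 30.5 between genotypes. The labels name no separate cultures for the replicates, so a p-value here reflects the scatter among 4 libraries, some of which may be technical. With 2 libraries against 2, an exact permutation test of a single value cannot go below p = 0.333, and the tests below come from a limma fit across all genes.

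The 250 bases before the annotated starts of *ICS1*, *SARD1*, *CBP60G* and *NPR3* are shown because these genes changed most among the 10, *ICS1* upward and the others downward. They are given from 5′ to 3′ on the strand of the gene, from the TAIR10.1 sequence and RefSeq annotation. Capitals mark TTGAC (the W-box core read by WRKY factors), TGACG (the core read by TGA factors), GAAATTT (a motif read by CBP60g and SARD1), CGCG (the core read by CAMTA factors), AATATCT (the core of the evening element) and GTGGGCC (a TCP factor site), each on either strand. TTGAC and TGACG can overlap.
The ICS1 stretch is chr1:28070045-28070294, plus strand.
ICS1: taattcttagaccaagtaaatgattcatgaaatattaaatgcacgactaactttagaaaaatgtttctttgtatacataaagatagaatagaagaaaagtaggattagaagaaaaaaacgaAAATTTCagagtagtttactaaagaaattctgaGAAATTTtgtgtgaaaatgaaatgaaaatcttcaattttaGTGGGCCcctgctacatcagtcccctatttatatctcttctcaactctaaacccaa
The SARD1 stretch is chr1:27749249-27749498, minus strand.
SARD1: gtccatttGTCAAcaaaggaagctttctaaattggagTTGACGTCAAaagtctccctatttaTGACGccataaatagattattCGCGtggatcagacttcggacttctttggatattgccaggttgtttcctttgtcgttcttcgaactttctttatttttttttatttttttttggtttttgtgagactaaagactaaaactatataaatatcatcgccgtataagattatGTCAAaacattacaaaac
The CBP60G stretch is chr5:9475429-9475678, plus strand.
CBP60G: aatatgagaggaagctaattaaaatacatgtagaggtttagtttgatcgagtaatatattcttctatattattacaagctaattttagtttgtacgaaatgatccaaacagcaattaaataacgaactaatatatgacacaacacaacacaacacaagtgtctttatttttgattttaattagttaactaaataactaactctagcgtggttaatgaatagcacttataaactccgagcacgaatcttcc
The NPR3 stretch is chr5:18228518-18228767, plus strand.
NPR3: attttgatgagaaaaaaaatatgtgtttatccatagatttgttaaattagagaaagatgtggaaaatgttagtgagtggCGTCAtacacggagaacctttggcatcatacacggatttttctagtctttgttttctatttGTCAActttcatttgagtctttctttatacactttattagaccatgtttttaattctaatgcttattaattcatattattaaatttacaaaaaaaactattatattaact

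*SARD1* held the densest set of these letters. Its stretch had 4 matches to TTGAC and 3 to TGACG, and the run TTGACGTCAA holds each motif on both strands, the first at -213. It also had 1 CGCG, at -167. *ICS1* alone of the 10 held GAAATTT, at -129 on the other strand and at -96 on its own, and it alone held GTGGGCC, at -56. That last motif was added to the search after the *ICS1* sequence had been read. No motif lay before *CBP60G*, whose TGACG and TTGAC overlap just inside the gene, at 21 and 22.

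Over the window from 250 bases before to 50 after the start, TTGAC was found at 7 of the 10 genes and at 50.5% of 27443 genes in the same window. TGACG was found at 3 of 10 against 23.1%, GAAATTT at 1 of 10 against 14.2% and CGCG at 1 of 10 against 13.0%. GTGGGCC was at 1 of 10 against 1.79%, but its match at *ICS1* was known before the search. AATATCT was at 0 of 10 against 11.5%. Neither *NPR1* nor *PBS3* held any of the 6 motifs. A match is a string of letters and not a shown binding site, and a missing match says only that these letters are not in this window.

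**Figure D1:**
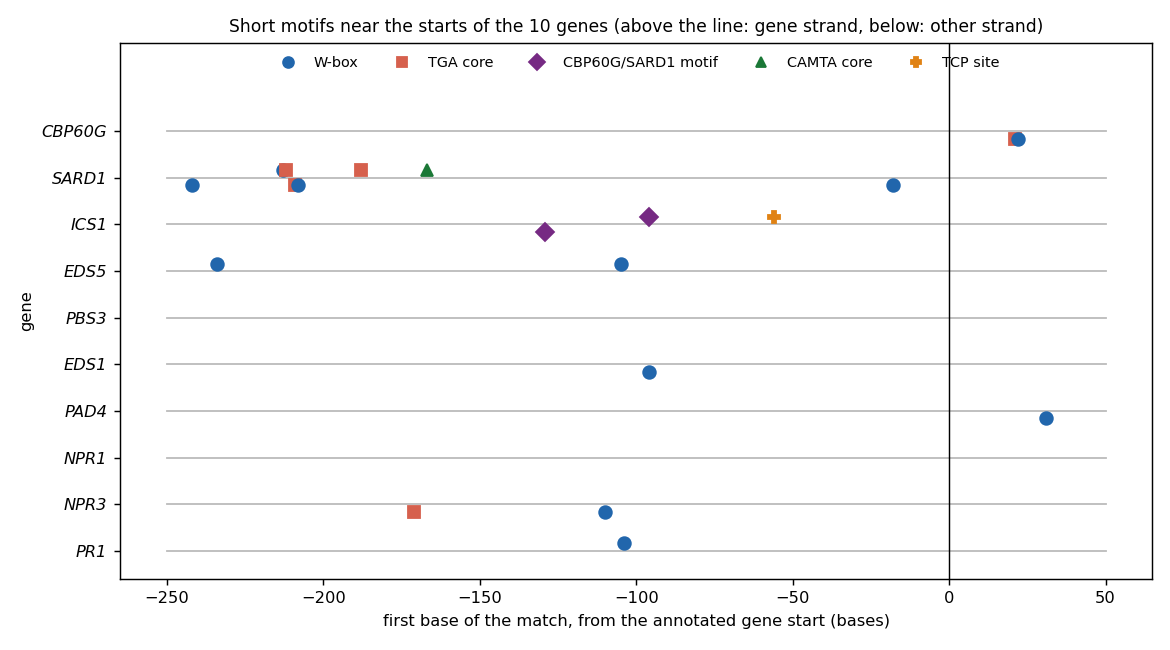
Positions of the 5 motifs that had a match, as bases from the annotated start, with 1 grey line per gene and symbols above the line for the strand of the gene and below it for the other. *SARD1* has matches to 3 motifs, *ICS1* the only GAAATTT and GTGGGCC matches, and *NPR1* and *PBS3* none.

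In the seedlings labelled trm4b-4, transcripts of both activators of salicylic acid synthesis, of the co-repressor receptor gene *NPR3* and of *EDS1* were lower, while those of the synthase gene *ICS1* were higher. Of the 10 genes 9 reached 1 FPKM in at least 2 libraries and were tested, and 7 of these passed at an adjusted p of 0.05, where 34.3% of all 19027 tested genes passed. *ICS1* was the 1 that rose, with 19.2% of all tested genes higher, and the other 6 fell, with 15.1% of all tested genes lower. The median change of the 9 was -0.27 on the log2(FPKM + 1) scale, against 0.03 for all tested genes. The 10 genes were chosen with earlier results of these data known, so these shares describe them and test nothing. The calls of *NPR1* and *PAD4*, the smallest of the falls, were lost on leaving out single libraries, as given below. In whole seedlings, fewer cells of a type and less RNA per cell cannot be told apart.

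**Figure D2:**
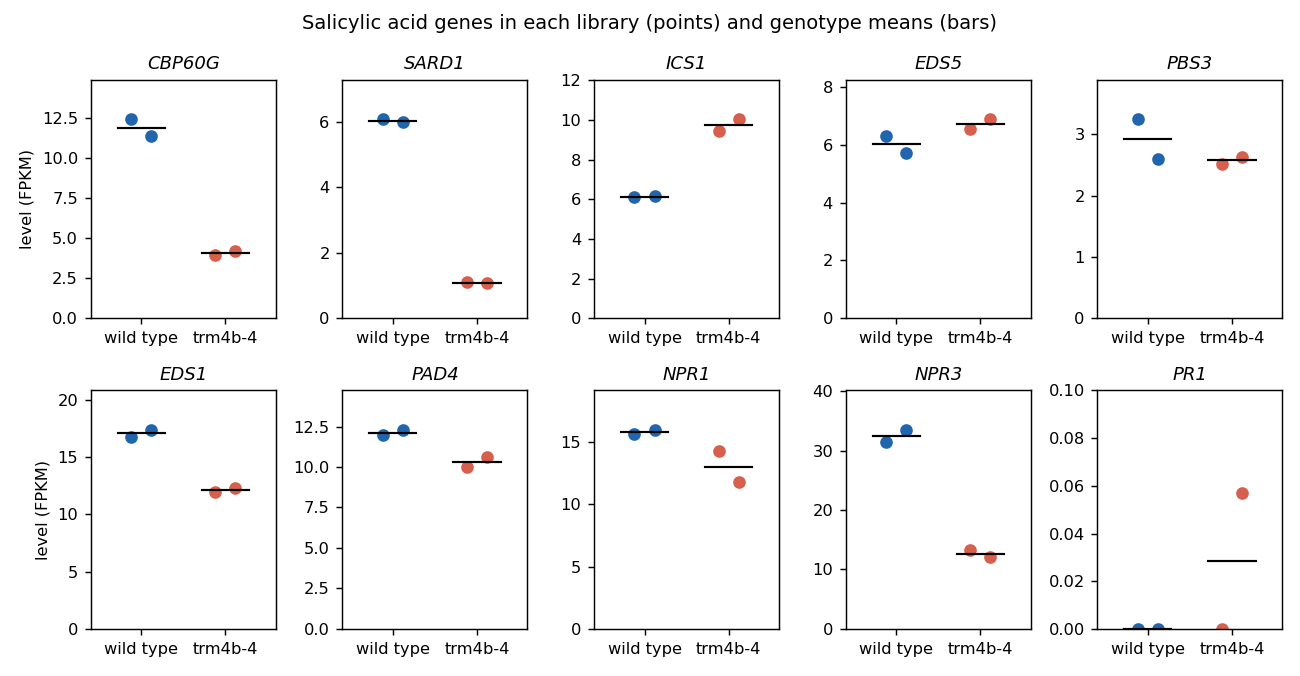
Level in FPKM of each of the 10 genes in the 4 libraries, with 1 point per library, black bars for the genotype means and a linear axis from 0 that differs between panels. *SARD1*, *CBP60G* and *NPR3* sit far lower in both trm4b-4 libraries, *ICS1* sits higher, *PBS3* overlaps and *PR1* is at 0 in 3 libraries.

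Both activators of *ICS1* fell. *SARD1* (AT1G73805, chr1:27744790-27749248), encoding a plant-specific transcription factor of the CBP60 family, was at 6.08 and 5.996 FPKM in wild type and at 1.11 and 1.08 FPKM in trm4b-4. The groups lay far apart and the libraries within each close together. These levels rest on 271 and 241 fragments in wild type against 41 and 42 in trm4b-4. The mean was 5.53 times lower (log2 change -1.75, 95% interval -1.97 to -1.53, limma adjusted p = 5.32e-06), at rank 74 from the lowest change of all tested genes. The pseudocount understates the fall of a gene this low, and limma-voom on recovered fragments, an alternative added after the data were seen, gave -2.45.

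*CBP60G* (AT5G26920, chr5:9475679-9478777), its relative and the one of the pair that binds calmodulin, was at 12.4 and 11.4 FPKM in wild type and at 3.93 and 4.22 FPKM in trm4b-4. The genotypes did not overlap. Its mean was 2.92 times lower (log2 change -1.34, 95% interval -1.53 to -1.16, limma adjusted p = 8.2e-06), at rank 152 from the lowest. The ratio of *CBP60G* to *SARD1* was 2.04 and 1.897 in wild type and 3.55 and 3.92 in trm4b-4, so the share of transcript lost was larger for *SARD1*. Their coding sequences shared 63.8% of aligned bases.

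*AT1G73790* shares 640 bases with *SARD1* on the opposite strand. It was at 11.1 and 10.2 FPKM in wild type and 8.81 and 7.52 FPKM in trm4b-4 (log2 change -0.35, limma adjusted p = 0.0163). How the counting treated strand is not given in the sources used here, so fragments of a shared stretch cannot be assigned to one gene. *EDS5* shares 213 bases with *AT4G39040*, which was at 50.3 and 47.7 FPKM in wild type and 50.98 and 48.5 FPKM in trm4b-4 (log2 change 0.02, limma adjusted p = 0.712), and *NPR1* shares 38 bases with *AT1G64270* and 214 with *AT1G08667*, which is not analysed here.

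*ICS1* (AT1G74710, chr1:28070295-28074177), encoding the main isochorismate synthase of the defence response, went the other way. It was at 6.12 and 6.16 FPKM in wild type and at 9.43 and 10.03 FPKM in trm4b-4, with no overlap. The mean was 1.59 times higher (log2 change 0.59, 95% interval 0.42 to 0.75, limma adjusted p = 0.000487). The rise stood in the same libraries in which both activator genes fell. Per library, the ratio of *ICS1* to *CBP60G* was 0.493 and 0.542 in wild type and 2.403 and 2.37 in trm4b-4.

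The genes of export and conjugation, the next steps, did not pass the test. *EDS5* (AT4G39030, chr4:18185437-18189224), the plastid exporter gene, was at 6.31 and 5.71 FPKM in wild type and at 6.56 and 6.87 FPKM in trm4b-4 (log2 change 0.14, 95% interval -0.05 to 0.33, limma adjusted p = 0.232). *PBS3* (AT5G13320, chr5:4267456-4271064), the conjugating enzyme gene of the GH3 family, was at 3.24 and 2.596 FPKM in wild type and at 2.52 and 2.63 FPKM in trm4b-4 (log2 change -0.13, 95% interval -0.39 to 0.14, limma adjusted p = 0.43). The groups of *PBS3* overlapped, and those of *EDS5* lay apart by less than the spread within wild type. Single libraries moved both values. The log2 change of *EDS5* was 0.20 without wild type replicate 1 and 0.08 without wild type replicate 2. That of *PBS3* was -0.01 without wild type replicate 1 and -0.25 without wild type replicate 2. The ratio of *ICS1* to *EDS5* was 0.9698 and 1.08 in wild type and 1.44 and 1.46 in trm4b-4, with no overlap. That of *ICS1* to *PBS3* was 1.89 and 2.37 in wild type and 3.75 and 3.81 in trm4b-4, again with no overlap.

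The immune node genes fell. *EDS1* (AT3G48090, chr3:17755329-17758147) was at 16.8 and 17.3 FPKM in wild type and at 11.9 and 12.3 FPKM in trm4b-4, with no overlap (1.41 times lower, log2 change -0.46, 95% interval -0.59 to -0.33, limma adjusted p = 0.000422). Its partner gene *PAD4* (AT3G52430, chr3:19431095-19434450) was at 11.98 and 12.3 FPKM in wild type and at 9.98 and 10.6 FPKM in trm4b-4, also with no overlap (1.18 times lower, log2 change -0.22, 95% interval -0.36 to -0.07, limma adjusted p = 0.032). The call of *PAD4* was lost without wild type replicate 1 (limma adjusted p = 0.0873), wild type replicate 2 (0.136) or trm4b-4 replicate 1 (0.135), and also with no filter (limma adjusted p = 0.0599). The ratio of *EDS1* to *PAD4* was 1.401 and 1.41 in wild type and 1.19 and 1.16 in trm4b-4.

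*EDS1* has a close copy beside it, *AT3G48080*, 138 bases away, whose coding sequence matched it at 84.0% of aligned bases. That copy was at 3.26 and 3.32 FPKM in wild type and at 2.26 and 3.09 FPKM in trm4b-4 (log2 change -0.23, limma adjusted p = 0.194). It passed on leaving out trm4b-4 replicate 2 (log2 change -0.40, limma adjusted p = 0.0498) and under no other setting run. Reads that match both copies may have been split between them, so both levels are uncertain.

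Both receptor genes fell, by different amounts. *NPR3* (AT5G45110, chr5:18228768-18231588), encoding a co-repressor that binds salicylic acid, was at 31.4 and 33.4 FPKM in wild type and at 13.2 and 12.1 FPKM in trm4b-4, with no overlap (2.56 times lower, log2 change -1.29, 95% interval -1.43 to -1.15, limma adjusted p = 1.95e-06). *NPR1* (AT1G64280, chr1:23852748-23855658), encoding the co-activator, was at 15.7 and 15.96 FPKM in wild type and at 14.3 and 11.8 FPKM in trm4b-4 (log2 change -0.27, 95% interval -0.46 to -0.07, limma adjusted p = 0.0419). The groups of *NPR1* did not overlap, but its mutant libraries lay farther from each other than the nearer of them lay from wild type. Its call was lost without wild type replicate 1 (limma adjusted p = 0.105), wild type replicate 2 (0.139) or trm4b-4 replicate 2 (0.18), and also with no filter (0.112) or no mean-variance trend (0.115). The log2 change without trm4b-4 replicate 2 was -0.14.

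The ratio of *NPR1* to *NPR3* was 0.498 and 0.477 in wild type and 1.08 and 0.9749 in trm4b-4, without overlap. *NPR4* (AT4G19660), the other co-repressor gene, fell from 29.5 and 29.1 to 22.1 and 21.8 FPKM (log2 change -0.40, limma adjusted p = 0.00022), and it shared 78.3% of aligned coding bases with *NPR3*. Set against the sum of *NPR3* and *NPR4*, *NPR1* was at 0.257 and 0.255 in wild type and 0.404 and 0.347 in trm4b-4. The difference in change between these genes was not tested. *AT4G26120*, which shared 76.0% of aligned coding bases with *NPR1*, was at 2.04 and 1.47 FPKM in wild type and at 1.796 and 1.803 FPKM in trm4b-4 (log2 change 0.03, limma adjusted p = 0.879).

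*PR1* (AT2G14610, chr2:6241640-6242541), the standard marker of active salicylic acid signalling, was not detectable above the counting floor. It had 0 fragments in both wild-type libraries and in trm4b-4 replicate 1, and 1 fragment in trm4b-4 replicate 2, which is 0.057 FPKM. A count of 0 allows up to 3 fragments, or 0.15 to 0.18 FPKM for this gene, counting error only. It was not tested, and no fold is given. The marker gene *PR2* was also low, at 0.121 and 0.101 FPKM in wild type and at 0.1095 and 0.382 FPKM in trm4b-4, and below the filter. *PR5* was at 2.44 and 2.53 FPKM in wild type and at 2.56 and 2.88 FPKM in trm4b-4 (log2 change 0.09, limma adjusted p = 0.534).

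Levels in FPKM are per length and can be ordered between genes. In wild type the order of mean FPKM ran from *NPR3* (32.4) through *EDS1* (17.1), *NPR1* (15.8), *PAD4* (12.1), *CBP60G* (11.9), *ICS1* (6.14), *SARD1* (6.04), *EDS5* (6.01) and *PBS3* (2.92) to *PR1* at 0. *PAD4* overlapped with *CBP60G* there and *SARD1* with *EDS5*, and *ICS1* lay within the range of *EDS5*. In trm4b-4 *NPR1* (13.02 FPKM), *NPR3* (12.7 FPKM) and *EDS1* (12.1 FPKM) overlapped, and so did *PAD4* (10.3 FPKM) and *ICS1* (9.73 FPKM). *SARD1* had the lowest level of the 9 tested genes there, at a mean of 1.09 FPKM, below *PBS3* (2.57 FPKM), and *CBP60G* (4.07 FPKM) lay below *EDS5* (6.71 FPKM). Together the 10 genes summed to 110.0 and 110.8 FPKM in wild type and 73.0 and 71.6 FPKM in trm4b-4. That sum is weighted toward the most abundant genes, above all *NPR3*, at a mean of 32.4 FPKM in wild type and 12.7 FPKM in trm4b-4. *ICS1* rose within it.

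**Figure D3:**
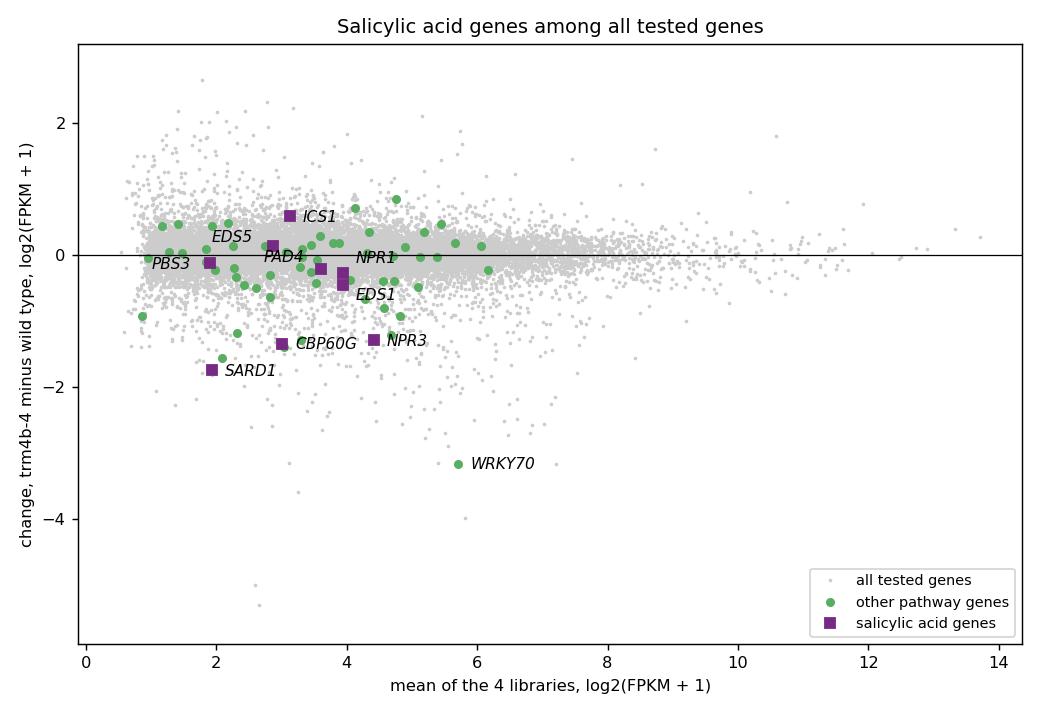
Change between genotypes against the mean level of the 4 libraries, both on the log2(FPKM + 1) scale, for all tested genes (grey), the 9 tested salicylic acid genes (purple squares) and other genes of the pathway (green). *SARD1*, *CBP60G* and *NPR3* lie below the bulk of genes and *ICS1* near its upper edge, and *WRKY70* is the lowest pathway gene, at -3.17.

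Around these 10 genes, 62 further genes of the pathway were read, of which 56 were tested. By adjusted p, 13 were higher and 21 lower, so 60.7% passed, where 34.3% of all tested genes did. The share called higher lay near the 19.2% of all tested genes, and the share called lower lay above their 15.1%. The list was made with earlier results of these data known, so these shares are a description and no test. The 13 include *AGP5* and the 21 include *NIMIN1*, which passed the filter only through the genotype in which each was high. Their median change was -0.04. The counts by role below stand against 19.2% of all tested genes higher and 15.1% lower. On leaving out single libraries, fewer of these genes were called higher, and so were fewer of all tested genes. The 6 that were under the filter were *BSMT1*, *MES1*, *WRKY28*, *WRKY38*, *WRKY62* and *PR2*.

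Among 7 other synthesis genes 4 rose and 1 fell. *ICS2*, the other isochorismate synthase gene, rose with *ICS1*, from 12.1 and 13.1 to 22.2 and 20.5 FPKM (log2 change 0.72, limma adjusted p = 7.38e-05). The ratio of *ICS2* to *ICS1* was 1.98 and 2.12 in wild type and 2.35 and 2.04 in trm4b-4, and these ranges overlapped. The coding sequences of the pair shared 79.7% of aligned bases, so fragments could have been shared between them. The phenylalanine ammonia-lyase genes, which start the phenylpropanoid pathway and the other route to salicylic acid, had small changes. *PAL1* (log2 change 0.13, limma adjusted p = 0.0144) and *PAL2* (log2 change 0.18, limma adjusted p = 0.00554) rose, *PAL3* fell (log2 change -0.42, limma adjusted p = 0.00145) and *PAL4* did not pass (log2 change 0.05, limma adjusted p = 0.642). *PAL1* lost its call without wild type replicate 1 (limma adjusted p = 0.0637), wild type replicate 2 (0.0627) or trm4b-4 replicate 1 (0.075), and with no mean-variance trend (0.0998). *EPS1*, an acyltransferase-family gene of pathogen-induced salicylic acid accumulation, rose by 0.49 on the log2 scale. Its call was lost without wild type replicate 2 or trm4b-4 replicate 1, and with no filter (limma adjusted p = 0.0598).

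Of 7 tested genes that modify the hormone 2 rose and 1 fell, so 42.9% passed, near the 34.3% of all tested genes. *UGT74F2*, a salicylic acid glucosyltransferase gene, fell from 38.5 and 40.4 to 26.96 and 28.9 FPKM (log2 change -0.48, limma adjusted p = 0.000154). Its close homologue *UGT74F1*, near it on chromosome 2, rose from 1.06 and 1.53 to 2.104 and 2.18 FPKM (log2 change 0.46, limma adjusted p = 0.0291), and fragments that match both may have been split. The call of *UGT74F1* was lost without wild type replicate 1 (limma adjusted p = 0.164), trm4b-4 replicate 1 (0.0736) or trm4b-4 replicate 2 (0.0948), and with no filter (0.0591). *DLO1*, a salicylic acid hydroxylase gene, rose by 0.44 on the log2 scale (limma adjusted p = 0.00976), a call lost without wild type replicate 1 (limma adjusted p = 0.0537). The related hydroxylase gene *DMR6* was at 17.7 and 19.5 FPKM in wild type and at 18.9 and 19.1 FPKM in trm4b-4 (log2 change 0.03, limma adjusted p = 0.746).

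Among regulators upstream of synthesis, 3 of 5 tested genes fell and 1 rose. *CAMTA3*, a calmodulin-binding factor that represses *CBP60G* and *SARD1* in unchallenged plants, fell from 25.96 and 26.03 to 19.5 and 19.4 FPKM (log2 change -0.40, limma adjusted p = 0.000274). *CBP60A*, a negative regulator of immunity from the same family as CBP60g, fell by 0.38 on the log2 scale (limma adjusted p = 0.000912). *TCP21*, also called *CHE*, a clock-linked activator of *ICS1*, fell from 75.6 and 78.1 to 64.9 and 66.1 FPKM (log2 change -0.23, limma adjusted p = 0.00098). *TGA4*, a gene of the TGA transcription factors, rose by 0.19 (limma adjusted p = 0.0423). Its call was lost without wild type replicate 1 (limma adjusted p = 0.132), wild type replicate 2 (0.127) or trm4b-4 replicate 1 (0.192). Neither quantile normalization (0.0522) nor median-of-ratios rescaling (0.0791) kept it, and it was lost with no filter (0.0696) and with no mean-variance trend (0.0647).

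Immune node genes beside *EDS1* and *PAD4* fell in 4 of 6 cases, and 0 rose. The helper receptor genes *ADR1-L2* and *ADR1-L1*, whose products work with EDS1 and PAD4, had the lowest log2 changes of the 6. *ADR1-L2* fell from 37.9 and 38.2 to 15.7 and 15.8 FPKM (2.42 times lower, log2 change -1.22, limma adjusted p = 3.63e-07). *ADR1-L1* fell from 37.7 and 37.7 to 19.9 and 18.8 FPKM (1.94 times lower, log2 change -0.93, limma adjusted p = 2.59e-06). *NDR1*, needed for signalling by many receptors of the coiled-coil class, fell from 7.95 and 7.74 to 5.02 and 4.38 FPKM (log2 change -0.64, limma adjusted p = 0.000833). *ADR1* itself fell by 0.31 on the log2 scale (limma adjusted p = 0.0154), a call lost without wild type replicate 1 (limma adjusted p = 0.0641), wild type replicate 2 (0.0704) or trm4b-4 replicate 1 (0.0532). *SAG101*, encoding another partner of EDS1, was at 10.7 and 11.4 FPKM in wild type and at 10.1 and 8.07 FPKM in trm4b-4 (log2 change -0.26, limma adjusted p = 0.0697).

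**Figure D4:**
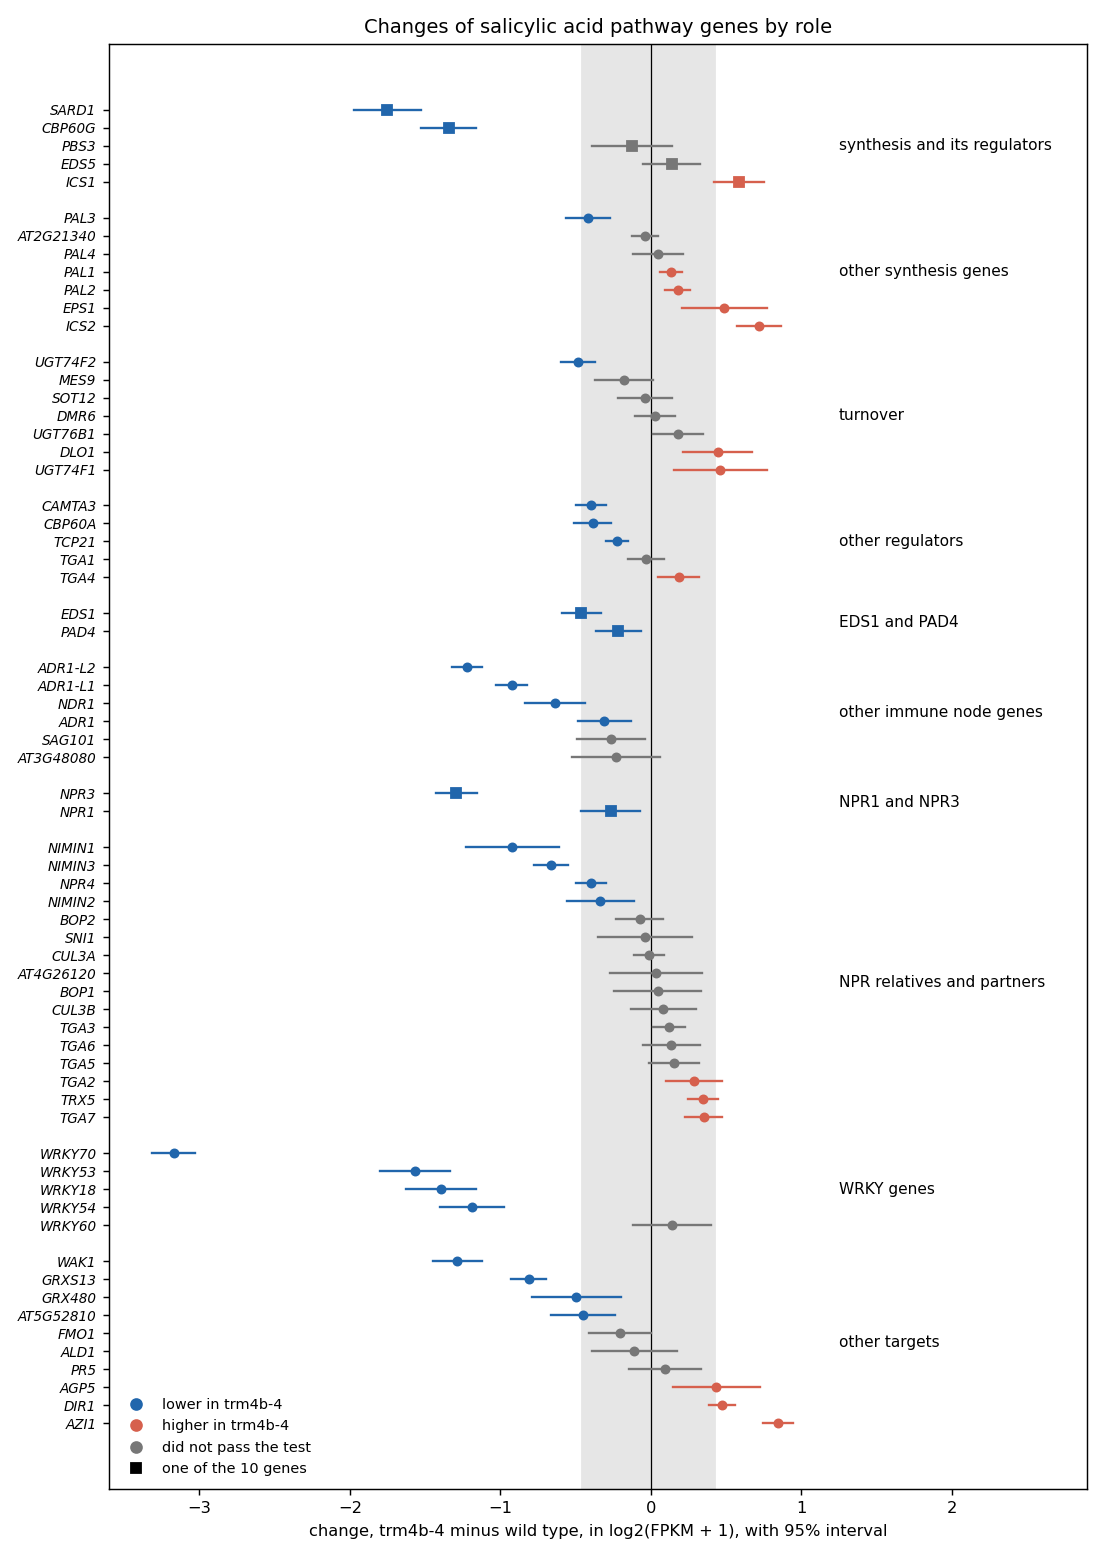
Change between genotypes in log2(FPKM + 1) for the 9 tested genes (squares) and 56 other pathway genes (circles) by role, with 95% intervals from the limma fit, blue for lower, red for higher and grey for genes that did not pass. The grey band spans the middle 90% of all tested genes, from -0.46 to 0.43, and *WRKY70* at -3.17 lies farthest from it, while *NIMIN1* and *AGP5* entered only through the genotype in which they were high.

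Of 16 relatives and partners of the NPR receptors, *NPR4* and *NIMIN1* included, 3 were higher and 4 lower. With 43.8% called, this was near the 34.3% of all tested genes. The *NIMIN* genes encode small proteins that bind NPR1 and restrain it. *NIMIN3* fell from 23.3 and 23.5 to 14.3 and 14.6 FPKM (log2 change -0.66, limma adjusted p = 2.69e-05). *NIMIN1* was at 1.47 and 1.55 FPKM in wild type and at 0.421 and 0.2404 FPKM in trm4b-4, and no test is given because it passed the filter only through the wild type, where it was high. *NIMIN2* fell by 0.34 on the log2 scale (limma adjusted p = 0.03), a call lost without wild type replicate 1 (limma adjusted p = 0.119), wild type replicate 2 (0.0925) or trm4b-4 replicate 1 (0.14), with no filter (0.072) and with voom (0.146).

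Of the 5 TGA genes among these partners 2 rose and 0 fell. *TGA7* rose from 16.9 and 17.2 to 22.8 and 21.2 FPKM (log2 change 0.35, limma adjusted p = 0.00146). *TGA2* rose by 0.29 on the log2 scale (limma adjusted p = 0.0264), a call lost without wild type replicate 1 (limma adjusted p = 0.0979), wild type replicate 2 (0.0728) or trm4b-4 replicate 1 (0.14), with no filter (0.0747) and with no mean-variance trend (0.0713). Its log2 change was 0.18 without trm4b-4 replicate 1. *TGA3*, *TGA5* and *TGA6* were at 0.12, 0.15 and 0.14 and did not pass. *TRX5*, encoding a thioredoxin that reduces NPR1 to its active form, rose from 30.2 and 32.3 to 39.8 and 40.1 FPKM (log2 change 0.34, limma adjusted p = 0.000553). The ubiquitin ligase scaffold genes *CUL3A* and *CUL3B*, through which NPR1 is degraded, were at -0.01 and 0.08 and did not pass.

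Among WRKY genes that respond to salicylic acid, 4 of 5 tested genes fell and 0 rose. *WRKY70*, a regulator downstream of NPR1, fell from 158 and 152 to 15.2 and 17.6 FPKM (9.47 times lower, log2 change -3.17, limma adjusted p = 1.02e-08), at rank 6 from the lowest change of all tested genes. *WRKY53* fell from 6.43 and 6.28 to 1.63 and 1.35 FPKM (log2 change -1.57, limma adjusted p = 1.35e-05) and *WRKY18* fell from 11.97 and 12.6 to 3.59 and 4.56 FPKM (log2 change -1.39, limma adjusted p = 2.57e-05). *WRKY54*, the closest relative of *WRKY70*, fell by 1.19 on the log2 scale (limma adjusted p = 3.7e-05). In all 4 the genotypes were far apart, while *WRKY60* overlapped (log2 change 0.14, limma adjusted p = 0.382).

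Among 10 other tested genes, which were targets or genes of systemic resistance, 3 were higher, *AGP5* included, and 4 lower. *WAK1*, a wall-associated kinase gene induced by salicylic acid, fell from 14.2 and 14.8 to 5.52 and 5.15 FPKM (log2 change -1.29, limma adjusted p = 4.97e-06). *GRXS13*, a glutaredoxin gene, fell from 29.6 and 31.6 to 16.9 and 17.1 FPKM (log2 change -0.81, limma adjusted p = 9.43e-06). *GRX480*, a glutaredoxin gene whose product binds TGA factors, fell by 0.50 on the log2 scale (limma adjusted p = 0.0186). That call was lost without wild type replicate 1 (limma adjusted p = 0.07), wild type replicate 2 (0.0641) or trm4b-4 replicate 1 (0.0616), with no filter (0.0732) and with no mean-variance trend (0.0664), and its log2 change was -0.30 without trm4b-4 replicate 1. *AT5G52810*, annotated as a gene of an NAD(P)-binding Rossmann-fold protein, fell by 0.45 on the log2 scale (limma adjusted p = 0.00648).

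*AZI1* and *DIR1*, lipid transfer protein genes of systemic resistance, rose. *AZI1* went from 19.3 and 19.2 to 35.8 and 34.8 FPKM (log2 change 0.85, limma adjusted p = 3.2e-06) and *DIR1* from 36.8 and 35.3 to 51.1 and 49.6 FPKM (log2 change 0.47, limma adjusted p = 4.94e-05). *AGP5*, an arabinogalactan protein gene, was at 0.986 and 0.889 FPKM in wild type and at 1.48 and 1.76 FPKM in trm4b-4, and no test is given because it passed the filter only through trm4b-4, where it was high. *ALD1* and *FMO1*, of the pipecolic acid branch of systemic resistance, did not pass (log2 change -0.11, limma adjusted p = 0.525, and log2 change -0.20, limma adjusted p = 0.119).

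Genes of rapid stress and touch responses and of the clock moved in the same libraries. These lists were chosen with earlier results of these data known, so their counts are no independent support. Of 12 rapid-response genes 11 fell and 0 rose, where 15.1% of all tested genes were lower. The median log2 change of the 12 was -2.46, and their summed level was 1135 and 1139 FPKM in wild type and 173 and 176 FPKM in trm4b-4. Among them *TCH4*, a touch-induced wall enzyme gene, fell by 3.99 on the log2 scale, and *TCH3*, a touch-induced calmodulin-like gene, fell by 2.58 on the log2 scale. Of 7 tested clock genes 4 were higher and 3 lower, where 19.2% and 15.1% of all tested genes were, among them *CCA1* (0.92) and *TOC1* (-0.29). *PRR9*, counted among the 4, was at 0.667 and 0.764 FPKM in wild type and at 2.26 and 2.08 FPKM in trm4b-4 and passed the filter only through trm4b-4. The 8 clock genes summed to 521 and 535 FPKM in wild type and 495 and 492 FPKM in trm4b-4. The part of these gene groups in the differences of the salicylic acid genes was not tested.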

How the data were processed

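The deposited files hold FPKM values, which the authors had scaled to gene length and library total. TopHat2 2.0.12, Cufflinks 2.1.1, HTSeq 0.6.1, Cuffdiff and the TAIR10 build are named per the submitters' processing notes, without order or settings. All 24892 features above 0 gave whole fragments within 2e-06 plus a relative 3e-09, from library totals set by 419 to 447 genes each. For *CBP60G* the smallest length that did so was 1057 bases, below its coding length of 1692, and 2114 was used. The smallest fitting length was used for 23373 of the 24892 features and a multiple of it for the others, so some counts rest on a chosen length. Recovered fragments summed to 101.47% to 101.56% of the library totals.

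A gene was tested if 2 or more libraries had at least 1 FPKM. The test was limma 3.58.1 in R 4.3.3 on log2(FPKM + 1), two-sided, without covariates and with a mean-variance trend, with Benjamini-Hochberg adjusted p-values over all tested genes and a threshold of 0.05. Fold changes on this scale are understated for low genes. The code was tested on simulated data. Alternatives changed the filter, pseudocount, normalisation, variance model, replicate term or libraries, and limma-voom on recovered fragments was added after the data were seen. The 10 genes and all lists were chosen with earlier results of these data known.

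The text names the 10 genes, *TRM4B*, up to 3 called genes per role and direction with the smallest adjusted p, close relatives and classic partners, and 2 genes each of the stress and clock lists. Other pathway genes and the clock gene *PRR9* were named after their values were seen. The TAIR10.1 reference names 58 of the 62 further pathway genes, and the other 4 are given by locus if at all. Coding identity came from pairwise alignments of annotated coding sequences. Sequences and positions are those of TAIR10.1, and the files carry no coordinates.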

Additional observations from a re-analysis of the deposited data

How the results depend on the processing

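Same-numbered libraries did not deviate together across genes (correlation -0.04). The labels do not say what the numbers share, so a pairing was neither shown nor excluded. With the replicate block 7 of the 10 genes, 34 of the further pathway genes and 6769 of all tested genes passed, against 6530 of all without it, and no call of a named gene changed. On leaving out 1 library at a time, the lone library was assumed to vary like the other group. Fewer of the 10 genes then passed, fewer further pathway genes were called higher, and fewer of all tested genes passed as well. *SARD1*, *CBP60G*, *NPR3*, *EDS1* and *ICS1* passed under all 12 alternatives. *SARD1* and *CBP60G* met the stricter filter of 5 FPKM only through the wild type, where they were high. That setting therefore adds nothing for these genes. *EDS5* passed under none of the 12, and *PBS3* under none of the 11 that kept it, the stricter filter of 5 FPKM having removed it. Of 51 gene results, no filter ended 8 calls and no mean-variance trend 6, among them *PAL2* (limma adjusted p = 0.0531). The value of *AT4G26120*, which did not pass, changed sign under quantile normalization (-0.01) and without wild type replicate 2 (-0.12). Of all calls 55.9% were higher, and 47.0% after median-of-ratios rescaling. Voom on recovered fragments called 7524 genes. In the 250 bases before the start alone, TTGAC was at 5 of the 10 genes, against 44.9% of all genes searched. TGACG was at 2 of the 10 there, against 18.6%. The causes were not tested. Depth limits *PR1*, with at most 1 fragment, and *SARD1*, with 41 and 42 fragments in trm4b-4.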
